A study of Homo sapiens with 6 samples.

Results

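The genes described here encode the machinery by which cells display peptides on major histocompatibility complex (MHC) class I molecules. They were chosen by name, without use of measured values, as 9 genes. These were the class I heavy chains HLA-B, HLA-C, HLA-E and HLA-F, the light chain B2M, the peptide transporter subunits TAP1 and TAP2, the loading factor TAPBP and the transcriptional activator NLRC5. Gene identifiers without version gave 7 of the 9 among 33644 genes, and HLA-E and TAP1 are not analysed here. Of these 7, TAP2 was listed at 0 and the other 6 had an adjusted p.

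The series set HEK293T cells (wild type) against a HEK293T derivative labelled alt-LAMA3 KO, with 3 samples each at day 0, no treatment and growth in DMEM with serum and antibiotics. HEK293T is a line derived from human embryonic kidney and modified to express a viral T antigen. The labels state neither how the knockout was made nor whether it is 1 clone, and nothing in them says that the 3 samples came from separate cultures. If the comparison described next used these samples, its p-values measure the spread between them, which may be technical. Which libraries lie behind it, and how many, is not stated. The data are 1 table with the result of 1 comparison between 2 groups that its header leaves unnamed, and no value per sample is given in it. The group in which a gene with a positive log2 fold change is higher is called the numerator group here and the other the denominator group. Neither can be matched to the wild type or the knockout, and no direction below is an effect of the knockout.

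Markers went against the labelled cell type. Of 16 T lymphocyte markers, 11 had a mean normalized count of 72.0 or more (5 per 1000000 of all means added up), against 4 of 17 markers of HEK293 cells, 0 of 6 of B lymphocytes, 1 of 7 of myeloid cells and 1 of 5 of natural killer cells. The authors' deposited table gave 27989 for IL2RA, the highest T lymphocyte marker, and 1.83 for CD4, the lowest. By the authors' deposited table VIM, which many cell types share, was the highest HEK293 marker at 54717, while 5 of the 17, NEFL among them, were listed at 0. The highest and lowest of the other lists were CD79B (26.8) and MS4A1 (0) for B lymphocytes, CD68 (103) and CD14 (2.38) for myeloid cells, and NCAM1 (576) and NCR1 (0) for natural killer cells by the authors' deposited table. Of the 14 T lymphocyte markers tested, 9 were called lower in the numerator group and 0 higher (adjusted p under 0.05, deposited Wald test). Over all tested genes 14.8% were called lower and 14.7% higher. Of the 8312 tested genes above a mean of 72.0, 1797 were called lower and 1747 higher. The part of the T lymphocyte marker changes in the class I values was not tested. In RNA from bulk cells, fewer cells of a type and less RNA per cell cannot be told apart.

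A class I molecule is a polymorphic heavy chain paired with beta-2-microglobulin, the invariant product of B2M. Proteasomes cut cytosolic proteins into peptides, the TAP1 and TAP2 transporter carries these into the endoplasmic reticulum, and tapasin, the product of TAPBP, holds an empty class I molecule beside the transporter until a peptide is bound. NLRC5 enters the nucleus and acts through the RFX and NF-Y proteins bound at class I promoters, and interferons raise most of these genes. Cytotoxic T lymphocytes read the displayed peptides through the T-cell receptor and CD8, and lymphocytes themselves carry much class I on their surface.

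The heavy chain genes resemble each other, so reads from one can be assigned to another. To show how alike they are, the longest run of coding bases that the HLA-B and HLA-C reference transcripts share is given here, 66 bases long. It lies in exon 3 of both genes, at chr6:31356301-31356366 for HLA-B and at chr6:31271207-31271272 for HLA-C, on the minus strand of GRCh38 (GENCODE 29), and is printed 5′ to 3′.

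HLA-B and HLA-C, shared coding run: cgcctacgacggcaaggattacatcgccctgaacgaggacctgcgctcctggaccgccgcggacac

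Cut into words of 31 bases, 12.2% of the distinct words of HLA-B transcripts, 15.9% of those of HLA-C and 3.62% of those of HLA-F also occurred in transcripts of other annotated genes. HLA-C held 8.86% of the words of HLA-B, and HLA-B held 10.4% of the words of HLA-C. Of HLA-B, HLA-C and HLA-F, HLA-F was thus the most distinct in sequence. The shares were 1.55% for B2M, 9.39% for TAPBP and 0.287% for NLRC5. These are properties of the reference haplotype, and the alleles of the cells sequenced were not examined. How reads that match several genes were treated is not given in the sources used here.

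The promoters of 3 heavy chains are set side by side next as a description of sequence. They were chosen knowing that HLA-F passed the threshold described below and that HLA-B and HLA-C did not. Whether the changes of these 3 genes differed from each other was not tested, and neither was any part of the promoter letters in them. Sequences and positions are those of RefSeq on GRCh38.p14, counted from the first transcribed base, with -1 just before it. The stretches below are placed by a block of 6 bases that all contain, and capitals mark TGACG, a core bound by CREB and ATF factors, or CCAAT, the NF-Y site, on either strand. They lie at chr6:31357271-31357300 (HLA-B, minus strand), chr6:31272183-31272212 (HLA-C, minus strand) and chr6:29723312-29723341 (HLA-F, plus strand).

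HLA-B, -121 to -92: cttccaggatactcgTGACGcgtccccact

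HLA-C, -120 to -91: cttcctgaatactcaTGACGcgtccCCAAT

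HLA-F, -122 to -93: cttcctggatactcataacgcggccccatt

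The letters TGACG stood at -106 to -102 in HLA-B and at -105 to -101 in HLA-C, and were not found on either strand of the HLA-F window of 250 bases before to 50 after the start. CCAAT or its reverse occurred in all 3 windows, 3 times in HLA-B, 4 times in HLA-C and 2 times in HLA-F. Over 35116 promoter windows of the same length, 24.6% held TGACG and 34.6% held CCAAT. HLA-F alone of the 3 chains had an exact match to the core of the interferon-stimulated response element as it was searched. The pattern was GAAA and GAAA separated by 2 bases, which 3.57% of all windows hold. HLA-B and HLA-C held similar letters upstream, which this exact pattern does not count. The search therefore does not show that HLA-B and HLA-C lack an interferon element. The HLA-F match is shown in capitals, read on the opposite strand, at chr6:29723268-29723297 (plus strand).

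HLA-F, -166 to -137: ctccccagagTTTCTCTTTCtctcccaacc

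The B2M window held that core at -144 to -135 and again, overlapping, at -138 to -129. The stretch of 145 bases at chr15:44711332-44711476 (plus strand) is printed with both, and with TGACG and the reverse of CCAAT, in capitals.

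B2M, upstream stretch: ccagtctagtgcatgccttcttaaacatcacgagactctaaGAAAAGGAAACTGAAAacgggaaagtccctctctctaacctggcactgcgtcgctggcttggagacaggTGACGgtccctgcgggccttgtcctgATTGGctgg

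TAPBP held the interferon core at -20 to -11 and at -14 to -5, and TAP2 held it at -58 to -49. Only HLA-B, of the genes named here with a window, had an exact match to the kappa B pattern as it was searched. The pattern was GGG and TTCCC separated by 2 bases, which is found in 2.17% of all windows. The B2M stretch above and a TAP1 window held similar letters, which this exact pattern does not count. The search therefore does not show that the other genes lack a kappa B site. A match is a description of the letters, and shows neither binding nor activity.

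The changes of the class I genes were read from the deposited comparison. Of the 6 tested, 1 was higher in the numerator group, 0 were lower and 5 did not pass an adjusted p of 0.05 (the deposited Wald test with Benjamini-Hochberg adjustment over 13957 genes). Of all tested genes 29.5% passed, 14.7% as higher and 14.8% as lower. All 6 lay above a mean of 72.0, and 42.6% of the 8312 tested genes above that level passed. Whether the share of class I genes called differed from these shares was not tested. Log2 fold changes ran from -0.30 to 0.29 with a median of 0.08, beside a median of 0.00 over all tested genes and -0.01 over those above a mean of 72.0.

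Taken with the deposited errors, the estimates were precise enough to bound the changes. In all 6, the 95% interval of the fold change (normal, from the deposited standard error) lay within 1.5-fold in either direction, as it did for 49.4% of the 8312 genes above a mean of 72.0. The median standard error was 0.084 for the 6 genes and 0.14 for those 8312. An adjusted p that misses the threshold does not show that a gene was equal in both groups, and the intervals state the range left by the deposited errors. With errors widened by the spread of all statistics (a factor of 3.10), HLA-F lost its call (adjusted p = 1), 0 of the 6 genes passed, and 2.83% of all tested genes did. The standard error was then 0.45 for B2M and 0.27 for HLA-F, so the bound of 1.5-fold in all 6 rests on the deposited errors.

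**Figure D1:**
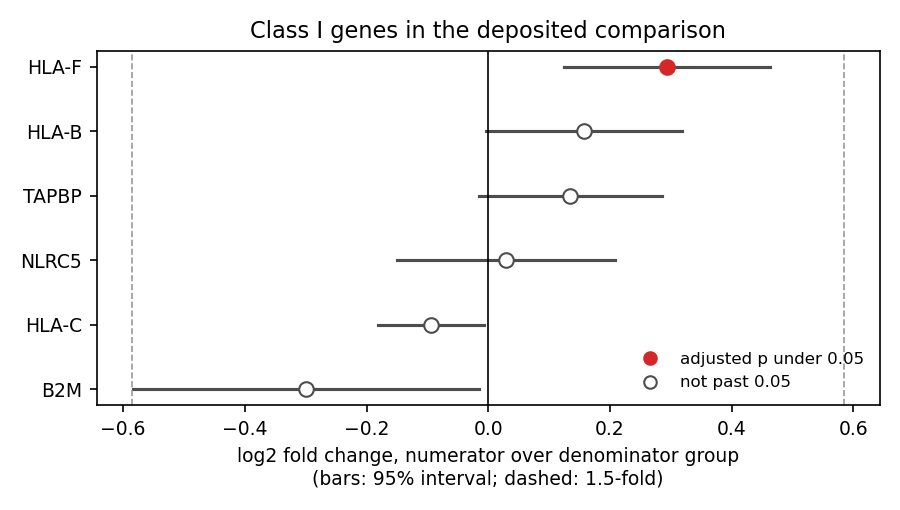
Log2 fold change (horizontal) of the 6 tested class I genes, with points for the deposited estimates and bars for 95% intervals, filled where the adjusted p was under 0.05. HLA-F alone is filled, and every bar lies between the dashed lines at 1.5-fold, that of B2M reaching almost to one of them.

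HLA-F, a heavy chain that can reach the surface without peptide and is read by receptors of natural killer cells, was the gene that passed (ENSG00000204642.13, chr6:29722775-29738528, plus strand). The authors' deposited table gave it a mean normalized count of 1682 and a log2 fold change of 0.29 (adjusted p = 0.00337, SE 0.087). This is 1.23-fold, with an interval from 1.09 to 1.38. Against a null of 1.5-fold in place of no change, HLA-F lost its call (adjusted p = 1) and 4.68% of all tested genes passed. Genes on the opposite strand cover some of its exons, namely a pseudogene (AL645939.1) over 16.1% of exon bases, HLA-F-AS1 over 12.3% and the pseudogene RPL23AP1 over 5.92%. AL645939.1 had a mean normalized count of 12.8 by the authors' deposited table. Whether counting used strand is not stated, so reads of HLA-F and of these genes cannot be told apart.

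HLA-C, a classical heavy chain and a ligand of killer-cell immunoglobulin-like receptors, was the most abundant of the 3 heavy chains with a value (ENSG00000204525.16, chr6:31268749-31272130, minus strand). Its mean normalized count was 11774 and its log2 fold change -0.09 (adjusted p = 0.102, SE 0.045) by the authors' deposited table. The interval for the fold, 0.882 to 0.996, was the narrowest of the 6 genes. It lay just below 1, while the adjusted p over all genes did not pass.

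HLA-B, the most polymorphic classical heavy chain, had a mean normalized count of 934 and a log2 fold change of 0.16 (adjusted p = 0.144, SE 0.082) by the authors' deposited table. Its interval ran from 0.998 to 1.25-fold. The annotated HLA-B gene (ENSG00000234745.10, chr6:31269491-31357188, minus strand) spans 87.7 kb because of 1 transcript that reaches into HLA-C, where 35 exon bases coincide. A pseudogene on the opposite strand (AL671883.2) covers 17.8% of HLA-B exon bases, so the limit on strand stated for HLA-F holds here too. AL671883.2 had a mean normalized count of 31.2 by the authors' deposited table. Estimates for HLA-B, HLA-C and HLA-F thus had both signs, with HLA-F past the threshold. Differences between them were not tested, since the covariance of their estimates is not known.

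B2M, whose product every class I molecule needs, had the lowest estimate of the 6 genes (ENSG00000166710.17, chr15:44711487-44718877, plus strand). The authors' deposited table gave a mean normalized count of 78873, higher than 99.9% of protein-coding genes above 0, and a log2 fold change of -0.30 (adjusted p = 0.109, SE 0.14). The interval ran from 0.668 to 0.989-fold. B2M had the widest interval of the 6 despite the highest mean. The spread between libraries that produced this error is not visible in the table.

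TAPBP encodes tapasin (ENSG00000231925.11, chr6:33299694-33314387, minus strand). It had a mean normalized count of 3228 and a log2 fold change of 0.13 (adjusted p = 0.194, SE 0.077) by the authors' deposited table, an interval of 0.989 to 1.22-fold. NLRC5, the class I transactivator (ENSG00000140853.15, chr16:56989485-57083531, plus strand), had a mean normalized count of 1528 and the estimate nearest to 0. In the authors' deposited table its log2 fold change was 0.03 (adjusted p = 0.871, SE 0.091), and the interval ran from 0.901 to 1.15-fold.

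**Figure D2:**
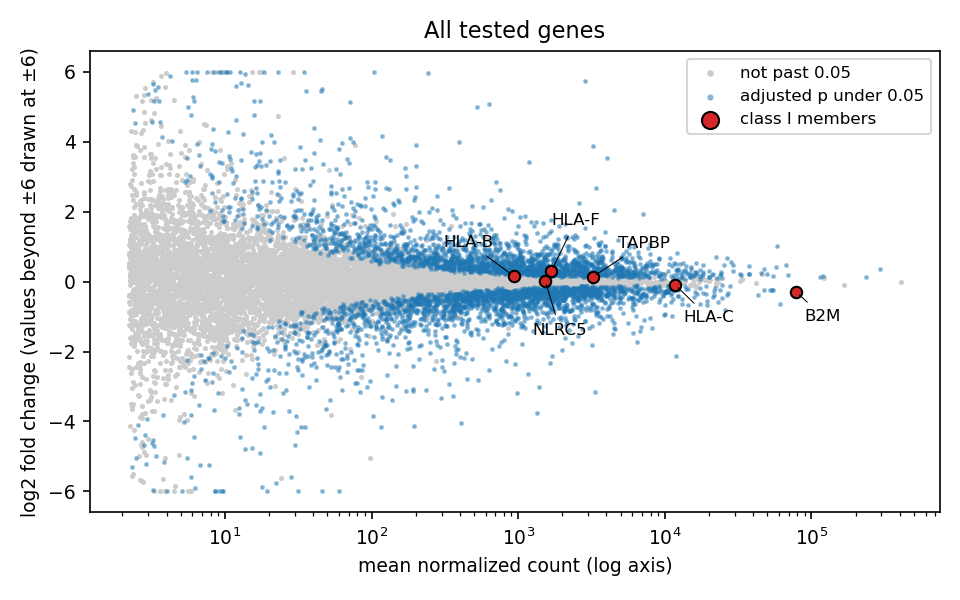
Log2 fold change (vertical, values beyond 6 drawn at 6) against mean normalized count (horizontal, log axis) for the 13957 tested genes, blue where the adjusted p was under 0.05, with the 6 class I genes in red. The 6 lie near 0 on the vertical axis and to the right of most genes.

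Levels were compared per kilobase of annotated exons. B2M came first with a mean normalized count of 12975 per kb, followed by HLA-C (4696 per kb), TAPBP (638 per kb), HLA-F (387 per kb), HLA-B (306 per kb) and NLRC5 (123 per kb). HLA-C was thus 15.3-fold above HLA-B per kb, and 10.4-fold with the length of the longest transcript in its place. HLA-F and HLA-B were the closest neighbours at 1.27-fold, and with the longest transcript HLA-F moved above TAPBP, at 1029 against 859 per kb. B2M exceeded HLA-C by 2.76-fold per kb, or 5.24-fold with the longest transcript. No spread over libraries is available for these levels, so the order carries no test.

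**Figure D3:**
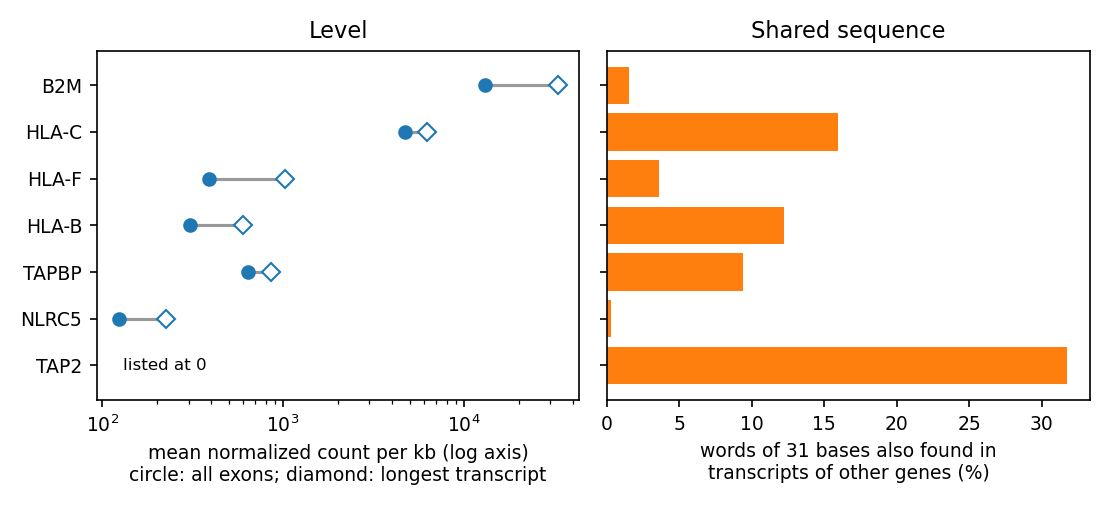
Left, mean normalized count per kb (log axis), with circles for the length of all annotated exons and diamonds for the longest transcript. Right, the percentage of 31-base words in each gene's transcripts that other genes also hold, from 0.287% in NLRC5 to 31.7% in TAP2.

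TAP2, a subunit of the peptide transporter (ENSG00000204267.13, chr6:32821833-32838780, minus strand), was listed at 0 by the authors' deposited table, with no fold change. Of its words, 31.7% occurred in AL669918.1, an annotated gene on the same strand that covers 32.3% of the TAP2 exon bases. The authors' deposited table gave AL669918.1 a mean normalized count of 58.6 and a log2 fold change of -1.71 (adjusted p = 0.156, SE 0.91). A listing at 0 was common in the region of TAP2. From HLA-F to TAPBP, 3.59 Mb of chromosome 6, 35 of 100 protein-coding genes were at 0 (35.0%), against 142 of 793 on the rest of chromosome 6 (17.9%) and 3147 of 18522 in all (17.0%). Among the 35 were DDX39B, an RNA helicase of messenger RNA export, and CSNK2B, the regulatory subunit of casein kinase 2, both used by nearly all cells and both named after their values were seen. Whether TAP2 mRNA was absent is therefore not known from the listing. Of the 45 tested genes in the region, 13 were called (9 higher and 4 lower), beside 29.5% of all tested genes and 173 of 509 on the rest of chromosome 6 (85 higher and 88 lower).

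**Figure D4:**
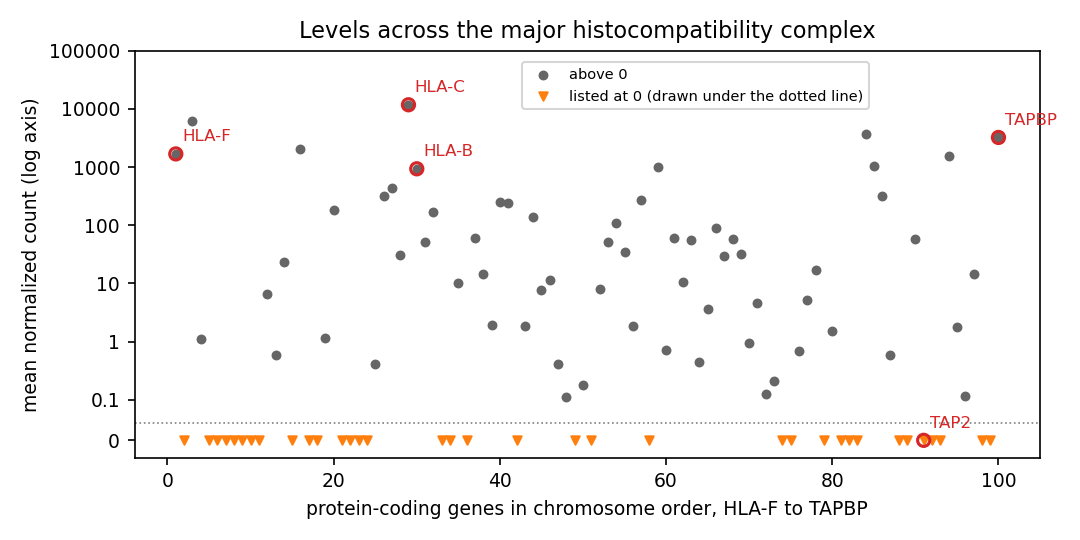
Mean normalized count (vertical, log axis, with genes listed at 0 under the dotted line) of 100 protein-coding genes in chromosome order from HLA-F to TAPBP, with class I genes ringed. The 35 genes at 0, TAP2 among them, are densest toward both ends of the region.

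The genes that act around class I molecules were taken by role. Across 10 lists of 107 genes by role, 97 were in the table and 73 were tested, and of these 12 were higher and 23 lower in the numerator group. Their median log2 fold change was -0.20. The share called is to be read beside the 29.5% of all tested genes and the 42.6% of those above a mean of 72.0, a level that 56 of the 97 reached. Against a null of 1.5-fold, 2 of the 73 passed (CD160 and IRF9), and with widened errors 3 did, CALR among them. CD160 and IRF9 were not among those 3.

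Genes listed as loading chaperones were lower in 4 of 6 tested members and higher in 0, with a median log2 fold change of -0.45. CALR, the calreticulin that holds class I beside tapasin, had the lowest estimate of those that passed. It was at -0.67 (adjusted p = 1.01e-27, SE 0.060), with a mean normalized count of 14418 over all libraries, by the authors' deposited table. CANX, the chaperone of free heavy chains, was at -0.46 (SE 0.063), UGGT1, a sensor of misfolded glycoproteins, at -0.44 (SE 0.077) and PDIA3, the oxidoreductase partner of tapasin, at -0.27 (SE 0.061) by the authors' deposited table. TAPBPL, a peptide editor related to tapasin, was at -0.72 (adjusted p = 0.0561, SE 0.30) and GANAB, a glucosidase, at 0.08 (SE 0.095) by the authors' deposited table, and neither passed. Whether these 4 genes differed in their change from TAPBP was not tested.

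Genes that make and trim peptides were called in some cases, and the 3 lists were not tested as groups. In the authors' deposited table, PSME2 and PSME3, subunits of proteasome activators, were at -0.49 (adjusted p = 0.0181, SE 0.17) and -0.42 (adjusted p = 5.09e-05, SE 0.092), while PSME1 at 0.12 (SE 0.14) and PSMB10, an immunoproteasome subunit, at -0.85 (SE 0.45) did not pass. PSMB5, PSMB6 and PSMB7, the catalytic subunits of the constitutive proteasome, passed in 0 of 3 cases, at 0.21 (SE 0.099), -0.02 (SE 0.46) and -1.24 (SE 0.92) by the authors' deposited table. PSMB7 and PSMB6 had mean normalized counts of only 10.6 and 29.2 by the authors' deposited table, against 807 for PSMB5. Of 9 peptidases, 1 was higher and 3 were lower. ERAP2, which trims peptides in the endoplasmic reticulum, was at -0.48 (SE 0.096), TPP2 at -0.36 (SE 0.12) and NRDC, the only one past the threshold as higher, at 0.24 (SE 0.028) by the authors' deposited table.

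**Figure D5:**
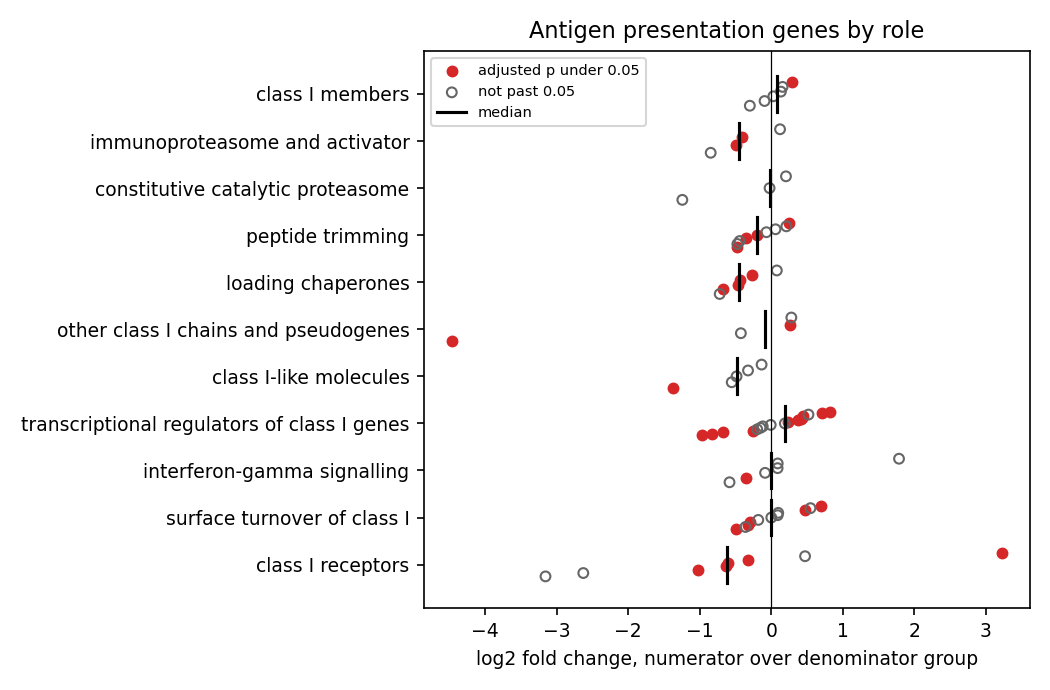
Log2 fold change (horizontal) of the tested genes of each role, 1 point per gene, filled red where the adjusted p was under 0.05, with a black line at the median. The class I genes lie close to 0 with a single filled point, while loading chaperones sit mostly left of 0 and transcriptional regulators spread to both sides.

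Regulators that bind or control class I promoters went both ways, with 7 of 17 tested members higher and 4 lower. The largest changes were of IRF9 at -0.97 (SE 0.11) and STAT2 at -0.83 (SE 0.14), both part of the interferon-activated factor ISGF3, and of BATF3, a basic leucine zipper factor, at 0.82 (SE 0.19) by the authors' deposited table. IRF1, an interferon-regulatory factor, was at -0.67 (SE 0.063) by the authors' deposited table. The partners of NLRC5 at class I promoters had estimates of both signs. RFX5 was at 0.24 (SE 0.054), RFXAP at 0.44 (SE 0.12) and NFYB at 0.37 (SE 0.11), and all 3 passed, against NFYC at -0.25 (SE 0.066), which also passed, by the authors' deposited table. RFXANK at -0.12 (SE 0.12) and NFYA at -0.15 (SE 0.074) did not pass by the authors' deposited table. IRF1 and these partners were named after their values were seen. Of the interferon-gamma pathway, 1 of 6 tested members passed, the receptor chain IFNGR1 at -0.36 (adjusted p = 0.00652, SE 0.11) by the authors' deposited table. JAK2 at -0.09 (SE 0.097), PTPN2 at 0.09 (SE 0.078), SOCS1 at 0.09 (SE 0.16), JAK1 at -0.58 (SE 0.55) and IFNGR2 at 1.79 (SE 1.25) did not pass by the authors' deposited table. The last 2 had means of only 20.3 and 9.53 by the authors' deposited table.

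Genes listed for the turnover of class I were also mixed, with 2 of 11 tested higher and 3 lower. Whether each of them acts on class I, or does so at the surface, was not tested. MARCHF1 and MARCHF9, membrane ubiquitin ligases, were at 0.69 (SE 0.14) and 0.47 (SE 0.12), and TMEM127, part of a complex that sends class I to lysosomes, at -0.50 (SE 0.061) by the authors' deposited table. Receptors that read class I had 1 of 8 tested members higher and 4 lower, and 6 of 14 were listed at 0. CD160 was at 3.23 (SE 0.34), KLRD1, the CD94 partner of receptors for HLA-E, at -1.02 (SE 0.38) and KLRK1, the NKG2D receptor, at -0.63 (SE 0.25) by the authors' deposited table. Mean normalized counts were only 57.2 for CD160 and 40.8 for KLRD1 by the authors' deposited table. With widened errors CD160, KLRD1 and KLRK1 all lost their calls. CD8B and CD8A, the chains of the CD8 co-receptor, were at -0.60 (SE 0.080) and -0.32 (SE 0.075) by the authors' deposited table, and were named after their values were seen.

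Relatives of class I were mostly low. Of 15 class I-like genes in the table, 2 reached a mean normalized count of 72.0, and 1 of 5 tested passed. That was HFE, which binds the transferrin receptor, at -1.38 (adjusted p = 0.00938, SE 0.45) with a mean normalized count of 58.0 by the authors' deposited table. MR1, which presents vitamin metabolites, was the most abundant at 2424 and stood at -0.14 (SE 0.078), and the stress ligands MICA and MICB were at -0.55 (SE 0.53) and -0.32 (SE 0.26), with no adjusted p under 0.05 by the authors' deposited table. FCGRT, the neonatal Fc receptor, was at -0.48 (SE 0.56) by the authors' deposited table and did not pass. Of the other class I chains and pseudogenes, HLA-G and 5 pseudogenes were listed at 0. The pseudogene HLA-J was at -4.47 (adjusted p = 0.0408, SE 1.77) with a mean of only 2.45, and HLA-L was at -0.42 (adjusted p = 0.443, SE 0.37), by the authors' deposited table. The pseudogene HLA-H was at 0.28 (adjusted p = 0.0777, SE 0.13) by the authors' deposited table and did not pass.

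With 1 comparison and no value per sample, no gene could be ranked for how closely its pattern followed that of the class I genes.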

How the data were processed

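RNA libraries from 6 labelled samples in 2 groups were prepared, per the labels' protocols, by a SMARTER library kit for mRNA. The aligner STAR, Salmon and hg38 are named, without role or version, per the submitters' processing notes. Per the file headers, the columns carry the names of a DESeq2 results table. The authors' mean normalized count, over all libraries behind the table, was treated as a signal, and library depths are unknown. Fold changes and their standard errors were deposited as log2 values, the Wald statistic was deposited and used as a score, and the deposited p-values were taken as given. The statistic equalled fold change over error to within 4.23e-07, and the adjusted p equalled Benjamini-Hochberg adjustment over 13957 genes to within 3.66e-07. No values of single samples were used, so planned fits on counts were not run.

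Identifiers were matched to symbols (33483 of 33644) and to GENCODE 29 on GRCh38 (33582), which gave exon lengths, positions and transcripts. Words were counted on the sense strand. Promoters were RefSeq windows on GRCh38.p14, present for 7 of the 9 genes. Motifs were searched on both strands. Intervals cover 95%. The genes and lists were chosen with earlier results of these data known. Named were the 9 genes, all tested members of lists with up to 6 tested, otherwise up to 3 past the threshold with the largest change, and the highest and lowest markers. Results for some genes of the lists are not reported here. Calling rules were tested on simulated data. Alternatives are given in the closing section. Python 3.11.15, numpy 2.4.6, pandas 2.3.3, scipy 1.17.1 and matplotlib 3.10.9 were used.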

Additional observations from a re-analysis of the deposited data

How the results depend on the processing

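The count of class I genes past the threshold was 1 under 5 alternatives (adjustment over all genes with a p-value, over genes with a mean of at least 72.0 or over protein-coding genes, centring on the median gene, and a threshold of 0.01). It was 0 against a 1.5-fold null and 0 with widened errors. By unadjusted p under 0.05 it was 3. For the other antigen presentation genes the count of 35 fell to 2 against a 1.5-fold null and to 3 with widened errors, by construction of these stricter tests, and lay between 26 and 35 otherwise. Centring shifted fold changes by 0.01 and turned RELA from -0.01 to 0.0034, neither value past the threshold. Levels per kb moved by over 1.5 times with the longest transcript for HLA-B (603), HLA-F (1029), B2M (32823) and NLRC5 (224). With words of 21 bases the shared percentage was 26.6 for HLA-B and 31.4 for HLA-C, and with words of 51 bases 2.54 and 5.12. No paired analysis was possible because the table holds no value per sample. Leaving out replicates and other tools were not run for the same reason.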
